A study of Homo sapiens with 6 samples.

Results

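Transcripts of glucose uptake and glycolysis were followed in NCI-N87 gastric cancer cells with and without SCAMP1 knockdown. The 10 genes were chosen by name (SLC2A1, HK1, HK2, PFKP, ALDOA, GAPDH, PGK1, ENO1, PKM and LDHA), as protein-coding entries among the 58735 genes with deposited values, and all 10 were found. At the level of single genes, PKM was higher in knockdown cells and passed the test across all genes. The other 9 genes did not pass it. Of all genes tested, 14.0% passed, so 1 of 10 is near the share over all genes. The PKM call was not stable. Of 6 refits with a single library omitted, 1 kept it. Counting these refits, PKM passed in 9 alternative fits and failed in 8. Over all genes, 1372 were called higher and 805 lower, but 644 and 164 without control replicate 2. Without knockdown replicate 2, 27.8% of all genes tested were called. SLC2A1, HK1, HK2, PFKP, GAPDH, PGK1, ENO1 and LDHA each had a mean within 19% of that in control cells. Outside these 10, the phosphoglycerate mutase PGAM1 and the hexose transporter SLC2A12 were each more than 2-fold higher.

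Glycolysis splits glucose into pyruvate in the cytosol, and cancer cells often run it at a high rate and reduce the pyruvate to lactate even where oxygen is at hand. Glucose enters through facilitative carriers, of which SLC2A1 (GLUT1) is the one most used by carcinoma cells, and is trapped by hexokinases. Phosphofructokinase makes the committed step, aldolase splits the sugar, and the later part of the pathway, from GAPDH to pyruvate kinase, returns ATP. GLUT1 also travels between the plasma membrane and endosomes, the compartments in which SCAMP1, a membrane protein of recycling vesicles, resides.

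NCI-N87 is an established line derived from a gastric carcinoma, and the same line was used in both groups. Cells were exposed for 24 h to lentivirus that carried the empty shRNA vector (shNC in the labels, shCtrl below) or the SCAMP1 shRNA (shScamp1 in the labels, shS1#1 below), and both populations were selected with puromycin at 2 μg/ml. Each group had 3 libraries, from stable populations harvested at about 80% confluence, and the labels call them biological replicates without stating whether the infections were separate. The p-values therefore measure the spread between these libraries only, and a single shRNA was sequenced.

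The libraries held between 14311769 and 15988700 reads on genes, as recovered from the FPKM (fragments per kilobase of gene, relative to library depth, with the scaling between libraries that the authors applied). SCAMP1 itself was at 12.6, 12.1 and 11.5 FPKM in shCtrl and at 1.70, 1.37 and 1.99 FPKM in shS1#1 libraries. All 6 epithelial markers examined were at 54.5 FPKM or more in every library and summed to between 4327 and 4544 FPKM in shCtrl and between 7906 and 8634 FPKM in shS1#1 libraries, ERBB2, which is amplified in this line, was between 1201 and 1515 FPKM, and 10 markers of blood, stromal and endothelial cells summed to at most 1.47 FPKM. In shS1#1 replicate 2, 9.21% of the reads were mitochondrial, against 6.09% to 6.78% in the other 5 libraries, so calls that its omission changed are given for the members and the genes named, and as counts for the related lists.

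Upstream sequences were taken from RefSeq (GRCh38.p14) for 4 members whose groups of libraries did not overlap and which have 1 listed start, 2 with higher and 2 with lower means in shS1#1 cells. The 250 bases before the start of transcription are shown 5′ to 3′ on the strand of the gene. Capitals mark ACGTG on either strand, which is a form of the core of the element bound by hypoxia-inducible factors. It is also part of the CACGTG box bound by MYC. GCGTG, another form of that core, was neither searched nor marked.
SLC2A1, chr1:42958869-42959118, minus strand: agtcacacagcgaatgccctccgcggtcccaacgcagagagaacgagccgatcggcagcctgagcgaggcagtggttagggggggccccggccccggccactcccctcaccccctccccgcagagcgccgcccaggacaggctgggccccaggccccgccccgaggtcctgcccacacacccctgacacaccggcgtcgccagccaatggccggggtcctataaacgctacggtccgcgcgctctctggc
PKM, chr15:72231191-72231440, minus strand: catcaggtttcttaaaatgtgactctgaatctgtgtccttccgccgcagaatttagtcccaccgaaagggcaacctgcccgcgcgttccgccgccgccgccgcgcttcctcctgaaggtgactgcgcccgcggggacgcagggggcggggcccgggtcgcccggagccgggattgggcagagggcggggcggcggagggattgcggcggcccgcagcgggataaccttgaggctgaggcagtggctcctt
PGK1, chrX:78103998-78104247, plus strand: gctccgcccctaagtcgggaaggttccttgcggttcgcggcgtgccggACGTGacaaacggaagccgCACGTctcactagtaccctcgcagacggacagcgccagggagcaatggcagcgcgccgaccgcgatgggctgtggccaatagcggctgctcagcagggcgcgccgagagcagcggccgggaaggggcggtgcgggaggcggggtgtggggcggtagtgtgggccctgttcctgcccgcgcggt
ENO1, chr1:8878687-8878936, minus strand: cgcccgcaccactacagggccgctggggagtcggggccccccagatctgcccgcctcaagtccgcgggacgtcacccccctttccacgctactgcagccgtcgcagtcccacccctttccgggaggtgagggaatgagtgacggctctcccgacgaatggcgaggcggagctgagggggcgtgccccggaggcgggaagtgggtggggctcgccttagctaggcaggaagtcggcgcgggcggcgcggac

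The window of PGK1 held 2 copies of ACGTG, 1 on each strand, and the windows of SLC2A1, PKM and ENO1 held none. All 10 members matched the table, with 23 windows in all, and 6 members (HK2, PFKP, ALDOA, GAPDH, PGK1 and LDHA) had ACGTG in at least 1 window. Among all 27305 genes of the table, 21.7% had it in at least 1 window. A gene with more windows has more places for a match. Counted by window, 9 of the 23 member windows held ACGTG, against 18.5% of all 35116 windows. The CACGTG box was found for 4 members (HK2, ALDOA, GAPDH and LDHA) and for 7.73% of all genes. By window, it was in 4 of the 23 member windows and in 6.34% of all windows. These are matches of letters in short windows and not mapped binding sites.

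In shCtrl cells the transcripts spanned a wide range of FPKM. GAPDH was highest with 562 ± 4.77 FPKM (SD, n = 3), followed by PKM with 392 ± 12.7, SLC2A1 with 348 ± 12.7 and ENO1 with 178 ± 5.41. LDHA (75.3 ± 1.28) and PGK1 (73.6 ± 1.69) overlapped between libraries, and PFKP (43.1 ± 1.23), HK1 (24.4 ± 0.750), HK2 (19.2 ± 0.608) and ALDOA (3.21 ± 0.140) followed without overlap. The order was the same in shS1#1 cells, where GAPDH and PKM also overlapped. The place of ALDOA is uncertain, since 93.8% of its coding bases are shared with another gene on its strand. FPKM divides by all annotated exonic bases of a gene, and this favours genes with few rarely used exons. With the median length of the annotated coding transcripts (CCDS) instead, PKM was first in shCtrl cells with 1450 and GAPDH second with 1269, in the same unit as FPKM.

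**Figure D1:**
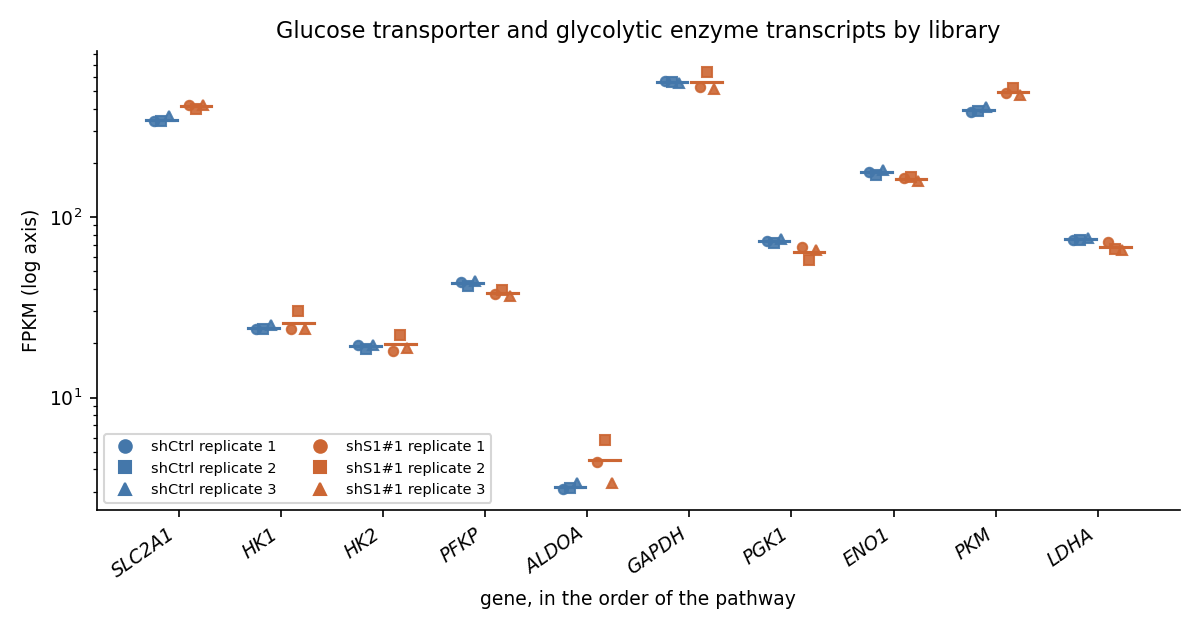
FPKM of the 10 genes (log axis) in each of the 6 libraries, with shCtrl in blue and shS1#1 in orange, the symbol giving the replicate number and the bar the mean of 3 libraries. Levels run from about 3 FPKM for ALDOA, whose level is uncertain, to 641 for GAPDH. The shS1#1 points lie apart from the shCtrl points for SLC2A1, PFKP, PGK1, ENO1, PKM and LDHA.

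Expression was compared with limma on log2(FPKM + 0.1) over the 15556 genes whose mean reached 0.5 FPKM, and all fold changes below are on that scale. All 10 members passed this filter. At a Benjamini-Hochberg adjusted p under 0.05, 1 of the 10 members was higher and none lower. Of all genes tested, 14.0% were called, 8.82% as higher and 5.17% as lower, so the count of members was near that share. Without adjustment, 4 members had a p under 0.05, as did 30.7% of all genes tested. Of the genes averaging 5 FPKM or more, 18.5% were called. No member passed both this threshold and an absolute log2 fold change of 1, which 3.16% of all genes did. The median absolute log2 fold change was 0.16 for the 10 members, 0.25 for all genes tested and 0.21 for those averaging 5 FPKM or more. The 95% intervals of all 10 log2 fold changes lay between -1 and 1, and those of 9, ALDOA being the exception, lay within a 1.5-fold change in either direction.

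The groups did not overlap for 6 members, with 2 higher and 4 lower in shS1#1, against 41.4% of all genes tested and 51.0% of those averaging 5 FPKM or more. The fit without shS1#1 replicate 2 called 5 of the 10 members, SLC2A1 and PKM as higher and PFKP, PGK1 and ENO1 as lower, but the same fit called 27.8% of all genes tested. This library had the highest shS1#1 value for HK1, HK2, PFKP, ALDOA, GAPDH, ENO1 and PKM and the lowest for SLC2A1 and PGK1. Its mitochondrial share stood apart as well, and the part of that share in these values was not tested.

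**Figure D2:**
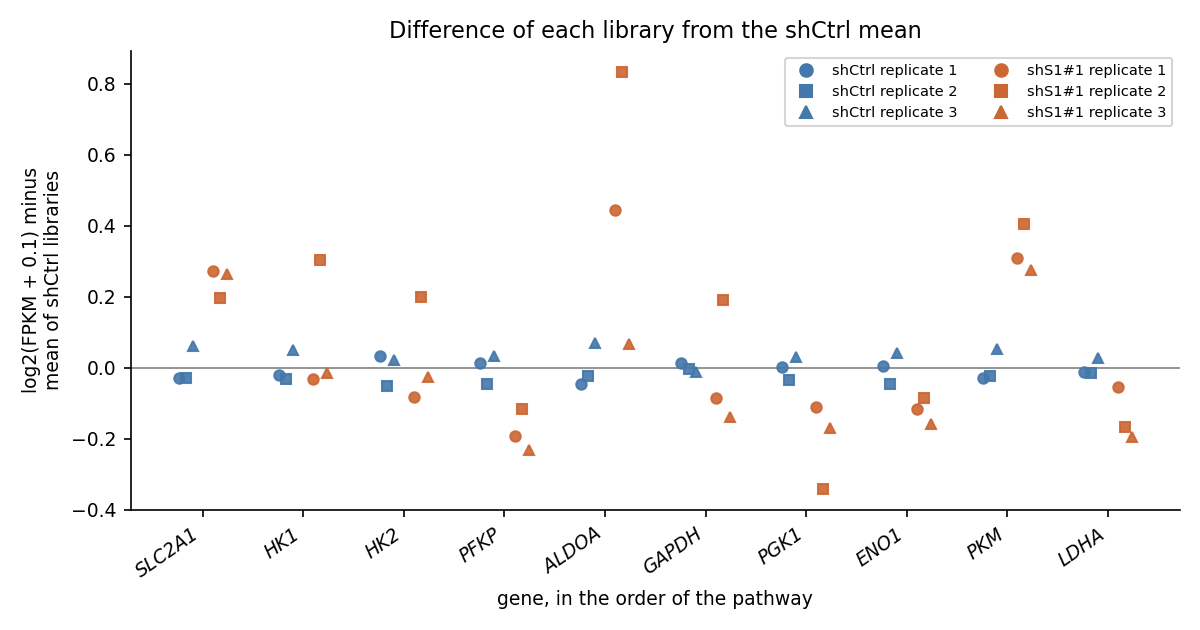
Difference of log2(FPKM + 0.1) of each library from the mean of the 3 shCtrl libraries, for the 10 genes in pathway order, with groups by colour and replicates by symbol. The shCtrl points stay within 0.07 of 0. The 3 shS1#1 points are all above 0 for SLC2A1, ALDOA and PKM, and all below 0 for PFKP, PGK1, ENO1 and LDHA. Replicate 2 of shS1#1 (orange squares) departs from the other 2 for HK1, HK2, GAPDH and PGK1, while for ALDOA all 3 lie apart.

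SLC2A1 encodes GLUT1, the carrier that brings glucose across the plasma membrane. It lies on chromosome 1 from 42925375 to 42959176 and was at 340.4, 340.4 and 362 FPKM in shCtrl and 420.02, 398 and 418 FPKM in shS1#1 libraries. Every shS1#1 library was above every shCtrl library. By limma this gave an adjusted p of 0.0787 for a log2 fold change of 0.24 (95% interval 0.066 to 0.42, standard error 0.07), and the mean was 18.5% higher. It passed the threshold without shS1#1 replicate 2 (log2 fold change 0.27, adjusted p = 0.00782) and after quantile normalization (0.33, adjusted p = 0.0321). The adjusted p of SLC2A1 rose to 0.267 without shCtrl replicate 2 and to 0.306 without a filter on low values. With 25500 to 28980 reads per library, counting error was small beside the spread between libraries.

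Hexokinases phosphorylate glucose and so hold it in the cell. HK1, the isoform found in most tissues, on chromosome 10 from 69269984 to 69401884, was at 24.1, 23.9 and 25.3 FPKM in shCtrl and 23.9, 30.1 and 24.1 FPKM in shS1#1 libraries. HK2, an isoform often induced in tumours, on chromosome 2 from 74833981 to 74893359, was at 19.7, 18.5 and 19.5 FPKM in shCtrl and 18.2, 22.1 and 18.9 FPKM in shS1#1 libraries. For both genes the groups overlapped, and shS1#1 replicate 2 was the highest of all 6 libraries. The log2 fold changes were 0.09 for HK1 (95% interval -0.17 to 0.34, adjusted p = 0.614 by limma) and 0.03 for HK2 (-0.19 to 0.25, adjusted p = 0.846), and both turned negative without that library (-0.023 and -0.054).

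PFKP is the platelet-type subunit of phosphofructokinase, the enzyme of the committed step. On chromosome 10 from 3066333 to 3137712, it was at 43.5, 41.7 and 44.02 FPKM in shCtrl and 37.6, 39.7 and 36.7 FPKM in shS1#1 libraries, and the groups did not overlap. The log2 fold change of -0.18 (standard error 0.06, 95% interval -0.33 to -0.028) had an adjusted p of 0.113 by limma. Without shS1#1 replicate 2 it was -0.21 (adjusted p = 0.0130), and with another library left out the adjusted p reached 0.304.

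ALDOA encodes the main aldolase of muscle and of many tumours and lies on chromosome 16 from 30064164 to 30070457. Its values were 3.11, 3.16 and 3.37 FPKM in shCtrl and 4.41, 5.80 and 3.37 FPKM in shS1#1 libraries, on only 193 to 311 reads per library. The groups overlapped, since shS1#1 replicate 3 lay just below the highest shCtrl library. The difference, 0.45 on the log2 scale with a 95% interval of -0.0096 to 0.91, had an adjusted p of 0.170 by limma, and it was 0.26 without shS1#1 replicate 2. In GENCODE 29, AC093512.2, a protein-coding entry on the same strand from 30053090 to 30070420, covers 42.3% of the exonic and 93.8% of the coding bases of ALDOA. How reads on bases shared by genes were counted is not given in the sources used here, AC093512.2 itself held 13 to 20 reads per library, and the part of this overlap in the low ALDOA values was not tested. The level of ALDOA is therefore uncertain. Of the other members, PFKP shares 4.58% of its coding bases with another gene on its strand, and the remaining 8 share none.

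GAPDH carries out the oxidation step that opens the ATP-yielding part of glycolysis, and is often used as a reference gene, as it was for the quantitative PCR of this study. It lies on chromosome 12 from 6533927 to 6538374 and was at 567, 561 and 558 FPKM in shCtrl and 529, 641 and 511 FPKM in shS1#1 libraries. The shCtrl libraries lay between the lower pair of shS1#1 libraries and shS1#1 replicate 2. The means were 562 ± 4.77 and 560.5 ± 70.6 FPKM (SD, n = 3 each), so the spread was much wider in shS1#1. The log2 fold change was -0.011 (95% interval -0.27 to 0.25, adjusted p = 0.957 by limma), its sign changed with the scaling, and without shS1#1 replicate 2 it was -0.11 (adjusted p = 0.0667). The 62 processed copies of GAPDH named in the table held at most 0.814% as many reads as the gene.

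PGK1 makes the first ATP of the pathway by transferring phosphate to ADP, and is a classic target of hypoxia-inducible factors. On chromosome X from 77910739 to 78129296, it was at 73.8, 71.9 and 75.3 FPKM in shCtrl and 68.2, 58.1 and 65.5 FPKM in shS1#1 libraries. All shS1#1 libraries were below all shCtrl libraries, and replicate 2 was lowest. With a 95% interval of -0.40 to -0.014, the log2 fold change of -0.21 had an adjusted p of 0.139 by limma. It was smaller without shS1#1 replicate 2 and passed the threshold there (-0.14, adjusted p = 0.0420). With another library left out, the adjusted p reached 0.328.

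ENO1, the enolase that yields phosphoenolpyruvate, lies on chromosome 1 from 8861000 to 8879250. It was at 178, 172 and 183 FPKM in shCtrl and 164, 168 and 159 FPKM in shS1#1 libraries, with no overlap. Limma estimated a log2 fold change of -0.12 (95% interval -0.28 to 0.039, adjusted p = 0.269), and -0.14 without shS1#1 replicate 2 (adjusted p = 0.0495). With another library left out, the adjusted p reached 0.529.

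PKM encodes pyruvate kinase M, the last ATP-yielding step, as the spliced forms M1 and M2, which gene totals do not separate. It lies on chromosome 15 from 72199029 to 72231822 and was at 384, 386 and 407 FPKM in shCtrl and 486, 519.5 and 474 FPKM in shS1#1 libraries. Every shS1#1 library was above every shCtrl library, on 52214 to 60958 reads. The mean was 392 ± 12.7 FPKM in shCtrl and 493 ± 23.5 in shS1#1 (SD, 3 libraries each), a rise of 25.8%. By limma the adjusted p was 0.0410 and the log2 fold change 0.33 (95% interval 0.14 to 0.52). The direction was the same in all 6 fits that each left out 1 library (log2 fold change 0.29 to 0.36), but the call was kept in 1 of them, that without shS1#1 replicate 2 (adjusted p = 0.00571), and the adjusted p reached 0.179 without shCtrl replicate 2. The call was also lost with TPM computed without mitochondrial genes (adjusted p = 0.0625), without a filter on low values (0.208) and with a replicate block (0.145).

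LDHA encodes the subunit that favours reduction of pyruvate to lactate, on chromosome 11 from 18394388 to 18408425. It was at 74.7, 74.4 and 76.8 FPKM in shCtrl and 72.5, 67.01 and 65.7 FPKM in shS1#1 libraries, and the groups did not overlap. For LDHA limma gave a log2 fold change of -0.14 (95% interval -0.30 to 0.022, adjusted p = 0.214), and it did not pass the threshold in any of the 17 other fits. Together the 10 genes held 0.931% ± 0.0133 of all reads on genes in shCtrl and 0.980% ± 0.0169 in shS1#1 libraries (SD, n = 3 each). By reads, PKM was the largest contributor with 52214 to 60958 per library, against 25500 to 28980 for SLC2A1 and 22278 to 27865 for GAPDH.

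Isozymes carry out the same step. The share of a family's summed FPKM that its member held was compared with exact two-sided permutation tests. With 3 libraries against 3, these cannot give a p below 0.1. The shares depend on the exonic lengths by which FPKM divides. With the median CCDS length instead, HK1 was at 40.1 and HK2 at 20.2 in shCtrl cells, against 24.4 and 19.2 FPKM. The share of HK2 among 5 hexokinases was 42.4%, 41.6% and 41.05% in shCtrl and 39.5%, 39.0% and 39.6% in shS1#1 libraries. HK2 therefore held less of the family in every shS1#1 library, a difference of -2.33 percentage points (exact p = 0.1, adjusted p = 0.175 over the 7 families). HKDC1, a hexokinase-like enzyme of epithelia, rose by 0.79 on the log2 scale (adjusted p = 0.00925 by limma), with 2.48 ± 0.327 FPKM in shCtrl and 4.34 ± 0.294 in shS1#1. ENO1 held 97.7% ± 0.192 of enolase FPKM in shCtrl and 98.5% ± 0.464 in shS1#1 (SD, n = 3 each, exact p = 0.1), and ENO2, the neuronal form, fell from 3.18 ± 0.328 to 1.77 ± 0.388 FPKM (log2 fold change -0.83, adjusted p = 0.0263 by limma). SLC2A1 held 98.8% ± 0.0768 of the FPKM of 5 class I transporters in shCtrl and 99.1% ± 0.0691 in shS1#1 (SD, n = 3 each, exact p = 0.1), with SLC2A3, the neuronal carrier, at 3.93 and 3.54 FPKM (adjusted p = 0.363 by limma).

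The shares of PFKP and LDHA overlapped between groups. PFKP held 56.7% ± 0.823 of phosphofructokinase FPKM in shCtrl and 58.8% ± 2.34 in shS1#1 (SD, n = 3 each, exact p = 0.2), while the muscle-type subunit PFKM fell with a log2 fold change of -0.46 (adjusted p = 0.0430 by limma). LDHA held 86.6% ± 0.596 and 89.6% ± 3.18 of lactate dehydrogenase FPKM (SD, n = 3 each, exact p = 0.3), and LDHB, the subunit of oxidative tissues, was at 12.1, 10.9 and 11.7 FPKM in shCtrl and 11.2, 5.07 and 7.97 FPKM in shS1#1 libraries (adjusted p = 0.196 by limma). PKM held nearly all of the pyruvate kinase FPKM, 99.997% in shCtrl and 99.9985% in shS1#1 on average. For ALDOA the share was 13.6% ± 0.409 in shCtrl and 21.0% ± 5.85 in shS1#1 (SD, n = 3 each, exact p = 0.1), with ALDOC at 20.4 and 17.002 FPKM (log2 fold change -0.26, adjusted p = 0.0710 by limma, and -0.20, adjusted p = 0.0167, without shS1#1 replicate 2). The adjusted p of ALDOC reached 0.206 with another library left out. The ALDOA share inherits the overlap of ALDOA with AC093512.2. Without shS1#1 replicate 2 the differences in share were smaller, at 0.823 instead of 2.17 percentage points for PFKP, 1.27 instead of 2.95 for LDHA and 4.30 instead of 7.39 for ALDOA.

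**Figure D3:**
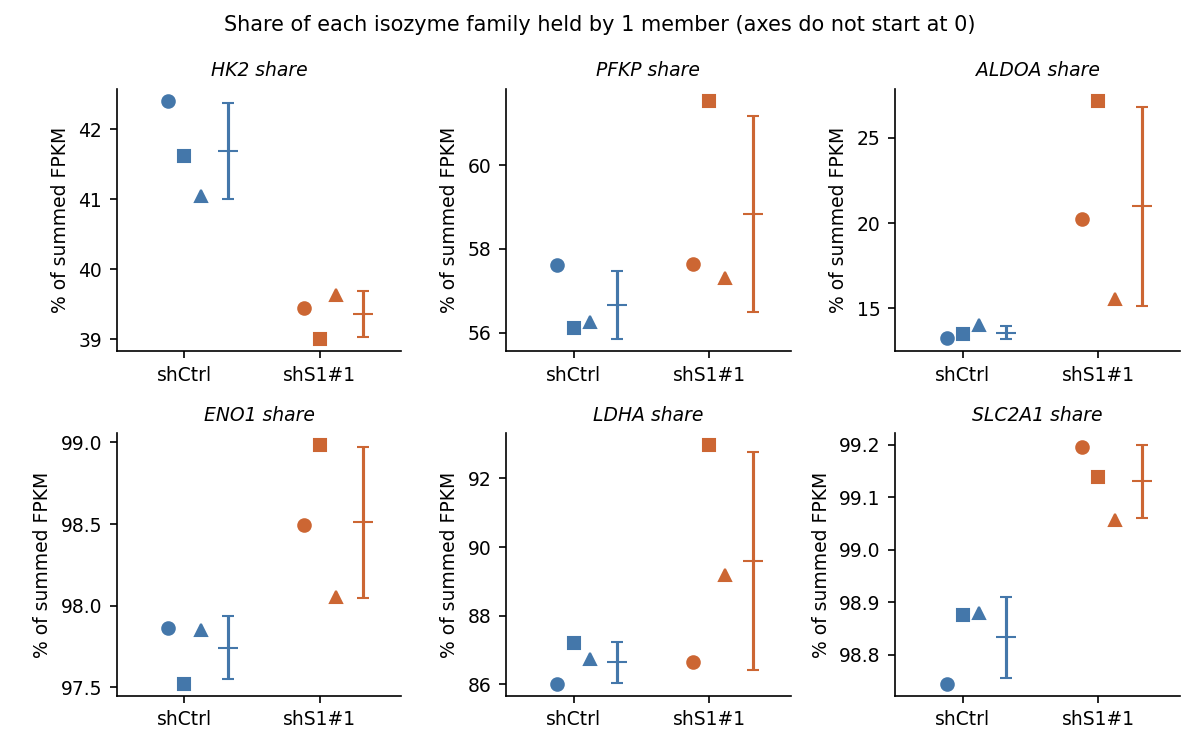
Share, in percent, of the summed FPKM of an isozyme family held by HK2, PFKP, ALDOA, ENO1, LDHA and SLC2A1, with 1 point per library and the mean ± SD of 3 libraries beside each group (axes do not start at 0). The groups are apart for HK2, ALDOA, ENO1 and SLC2A1, and for PFKP, ALDOA, ENO1 and LDHA the highest point is shS1#1 replicate 2.

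Of 20 further genes for glycolytic isozymes and steps, 10 were tested, 2 were higher and 3 lower, with a median log2 fold change of -0.30. PGAM1, which moves the phosphate between the second and the third carbon, stood out, at 58.6, 52.5 and 57.6 FPKM in shCtrl and 123, 115 and 122 FPKM in shS1#1 libraries. This 1.10 on the log2 scale had an adjusted p of 0.000651 by limma, and PGAM1 passed the threshold whichever library was left out (highest adjusted p 0.00808). The 13 named copies of PGAM1 held at most 1.14% as many reads as the gene. GPI, the isomerase between hexokinase and phosphofructokinase, fell from a mean of 40.1 ± 1.28 (SD, n = 3) to one of 31.7 ± 2.39 FPKM (log2 fold change -0.34, adjusted p = 0.0344 by limma). TPI1, which interconverts the triose phosphates, was at 209 ± 7.002 and 183 ± 18.7 FPKM (adjusted p = 0.220 by limma).

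Among 14 other hexose transporters 8 were tested, 3 were higher and none lower, with a median log2 fold change of -0.040. SLC2A12 (GLUT12) was at 6.93, 6.65 and 7.36 FPKM in shCtrl and 16.4, 20.7 and 17.4 FPKM in shS1#1 libraries, and rose with a log2 fold change of 1.36 (adjusted p = 0.000934 by limma). SLC2A6, a carrier of lysosomal membranes, rose by 0.32 on the log2 scale (adjusted p = 0.0330) and SLC5A1, the sodium-coupled glucose carrier of the gut, by 0.56 (adjusted p = 0.0345). In absolute terms, all 3 were at 18.2 FPKM or below on average, against 412 ± 11.9 FPKM for SLC2A1 in shS1#1 cells (SD, n = 3). Of 5 genes for the enzymes that make and degrade the allosteric activator of phosphofructokinase, 3 were tested and PFKFB2 was higher, by 0.52 (adjusted p = 0.0282). PFKFB3, the form often raised in tumours, was at 9.84 and 9.02 FPKM (adjusted p = 0.206).

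**Figure D4:**
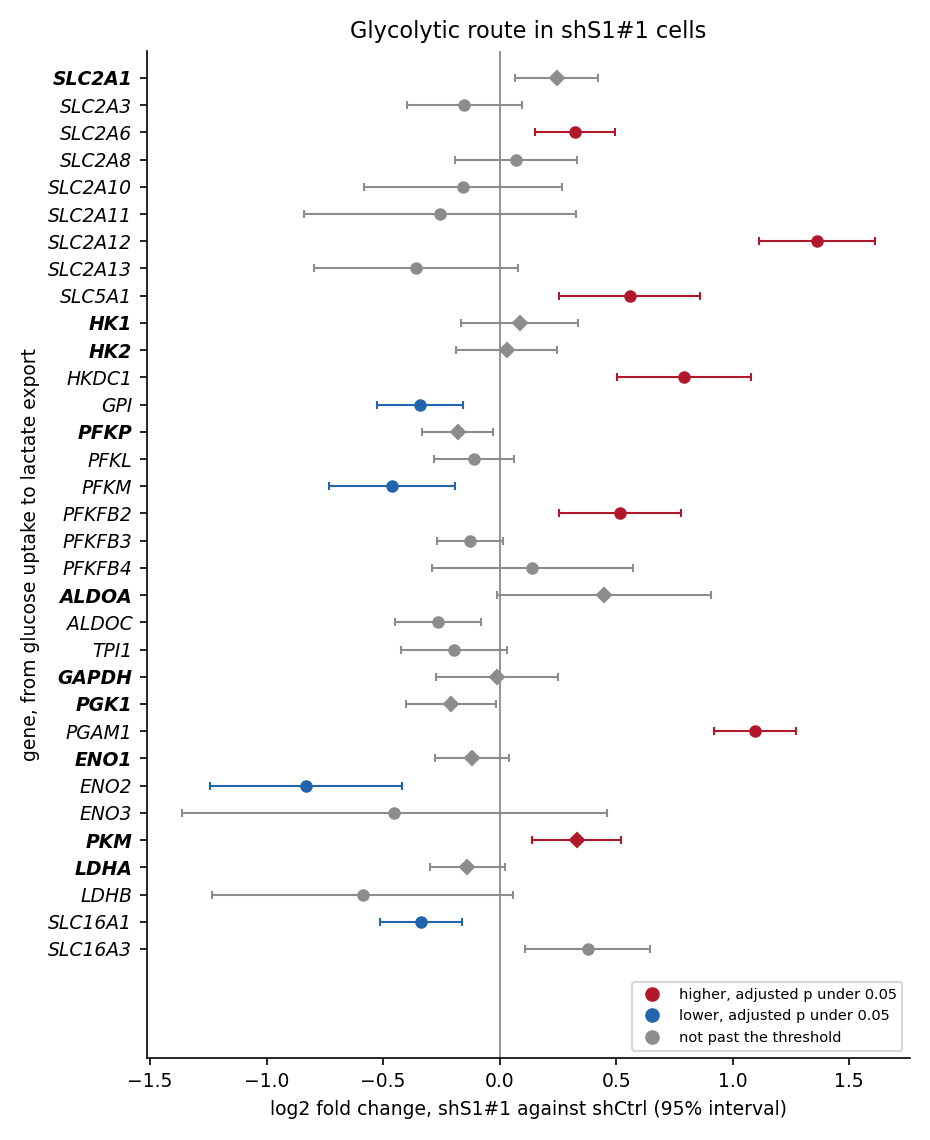
Log2 fold change in shS1#1 against shCtrl cells with its 95% interval, for the tested genes from glucose uptake to lactate export, with the 10 chosen genes as diamonds with bold names. Genes past an adjusted p of 0.05 are red where higher and blue where lower. PGAM1 and SLC2A12 lie beyond 1, PKM is the 1 red diamond, and the other 9 diamonds are grey.

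Of 17 genes that decide the fate of pyruvate and lactate, 15 were tested, none was higher and 2 were lower. SLC16A1 (MCT1), a proton-coupled carrier of lactate, fell from a mean of 43.8 ± 1.52 (SD, n = 3) to one of 34.7 ± 2.21 FPKM (log2 fold change -0.34, adjusted p = 0.0298 by limma). PDHA1, the catalytic subunit of pyruvate dehydrogenase, fell from 27.4 ± 0.778 to 21.4 ± 1.26 FPKM (log2 fold change -0.36, adjusted p = 0.0210). SLC16A3 (MCT4), the carrier of glycolytic cells, was at 21.3 ± 1.52 and 27.8 ± 3.46 FPKM (adjusted p = 0.0724) and passed the threshold without shS1#1 replicate 2 (adjusted p = 0.00485). BSG, the chaperone of both carriers, had a log2 fold change of 0.0037 (adjusted p = 0.989), but of 0.16 without shS1#1 replicate 2 (adjusted p = 0.0399).

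Of 14 genes for transcriptional regulators of glycolysis and related sensors of glucose, 13 were tested, 3 were higher and 2 lower, with a median log2 fold change of 0.088. TXNIP, an arrestin that promotes internalization of GLUT1, was at 26.3, 26.5 and 25.7 FPKM in shCtrl and 80.03, 64.8 and 79.3 FPKM in shS1#1 libraries (log2 fold change 1.504, adjusted p = 0.000601 by limma). Its relative ARRDC4 rose by 0.90 (adjusted p = 0.00110). Both are known targets of the glucose-sensing factor encoded by MLXIPL (ChREBP) and of its paralogue MLXIP, and MLXIPL fell from a mean of 2.98 ± 0.243 (SD, n = 3) to one of 1.02 ± 0.189 FPKM (log2 fold change -1.47, adjusted p = 0.00281), whereas MLXIP was at 8.65 and 9.87 FPKM (adjusted p = 0.312).

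HIF1A, the oxygen-regulated factor that induces many glycolytic genes, rose from a mean of 28.3 ± 1.13 (SD, n = 3) to one of 40.1 ± 3.79 FPKM (log2 fold change 0.50, adjusted p = 0.0145 by limma). The HIF1A call was lost without shCtrl replicate 1 (adjusted p = 0.0588) or 2 (0.0723) and with the replicate block (0.0565). MYC, an activator of LDHA and SLC2A1 in many cells, was at 122, 123 and 128 FPKM in shCtrl and 101, 71.2 and 101 FPKM in shS1#1 libraries. The MYC groups did not overlap, with an adjusted p of 0.0861, and of 0.00362 without shS1#1 replicate 2. The adjusted p of MYC reached 0.233 with another library left out.

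In all, 24 of 90 tested genes of these related lists were called, or 26.7%, against 14.0% of all genes tested and 18.5% of those averaging 5 FPKM or more, and the lists were chosen with earlier results of these data known. Without shS1#1 replicate 2 the lists held 21 higher and 19 lower genes, in a fit that called 27.8% of all genes; among the regulators these were 4 and 4, and for pyruvate and lactate 3 and 3. In the fit with all libraries, 9 of the 24 passed the threshold whichever library was left out. These included PGAM1, HKDC1, SLC2A12, PGM1, PSAT1, TXNIP, ARRDC4 and MLXIPL, and the other 15 lost the call without at least 1 library. Calls over all genes also fell, from 1372 higher and 805 lower to 644 and 164 without shCtrl replicate 2. How many of all called genes passed in every such fit was not counted.

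The genes most like PKM over the 6 libraries were ranked by Pearson's r of log2(FPKM + 0.1) among 6575 other protein-coding genes averaging 5 FPKM or more. They were LAD1 (r = 0.999), FBXL5 (0.999), TBC1D2 (0.997), MAN1B1 (0.996) and TRIB1 (0.996). All 5 were higher in each shS1#1 than in each shCtrl library and highest in shS1#1 replicate 2. These r values describe 6 libraries that fall into 2 groups, so they mostly restate the difference between the groups. Among the members, SLC2A1 was the one with the highest r with PKM (0.912).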

How the data were processed

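RNA-seq of 6 NCI-N87 libraries was analysed, 3 with the empty vector and 3 with shS1#1. The authors deposited FPKM per gene and library. Per the labels, their processing notes name HISAT2 2.0.5, featureCounts 1.5.0-p3, DESeq2 1.20.0 and hg38, without roles; counting options, strand and annotation are not given in the sources used here. GENCODE 29 gives the same coordinates for all 58735 genes. FPKM times gene length was divided by a step estimated for each library. The estimate started from the smallest product above 0, which was taken as a single read. The quotients were whole reads (within 0.001) for 100% of values above 0.

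The planned log-scale test was used: limma 3.58.1 (R 4.3.3; lmFit, eBayes with a mean-variance trend) on log2(FPKM + 0.1) for genes whose mean reached 0.5 FPKM, with Benjamini-Hochberg adjustment. Shares were compared with exact permutation tests (scipy 1.17.1). Alternatives covered the pseudocount, filter, scaling, variance model, voom on recovered reads, biotype, replicate block and leaving out each library. The members and lists were chosen with earlier results of these data known. In each list, genes past the threshold were named, up to 4 per direction, together with isozymes and with the steps that no member covers; other genes named (MYC, BSG, SLC16A3, MLXIP, PFKFB3, TALDO1 and CA9) were chosen after their values were seen. Some genes of the lists are counted but not reported here by name.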

Additional observations from a re-analysis of the deposited data

How the results depend on the processing

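Of the 10 glycolytic genes, the main analysis called 1 as higher and 0 as lower. No member was called higher with TPM computed without mitochondrial genes, without a filter on low values or with the replicate block (0 each), and 2 were after quantile normalization. Leaving out each library gave 0 to 2 higher and 0 to 3 lower members. Among the genes of the related lists, 12 were higher and 12 lower. These counts were 7 and 5 without a filter, 6 and 3 with the replicate block, and 6 to 21 and 3 to 19 when each library was left out. Over all genes the calls were 1372 higher and 805 lower, with 514 lower without a filter, 704 and 254 with the replicate block, and 644 to 2280 higher and 164 to 2050 lower when each library was left out. The causes were not tested. Each fit that leaves out a library has fewer samples, and the fit without shS1#1 replicate 2 called 4330 of 15556 genes, against 2177 with all libraries.

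The log2 fold change of GAPDH turned positive with TPM without mitochondrial genes (0.0031) and after quantile normalization (0.084), and ran from -0.11 to 0.052 when each library was left out. That of HK1 ran from -0.023 to 0.14 and that of HK2 from -0.054 to 0.086. The difference in the share of PKM ran from -0.0015 to 0.0035 percentage points. PKM was positive in all 17 alternatives and past the threshold in 9. The median over all genes moved by less than 0.1 under each scaling. The replicate numbers did not pair the samples: deviations from the group means correlated by -0.035, 0.032 and 0.067 for replicates 1, 2 and 3, and not every sample correlated best with its own number. With 3 libraries a group, an adjusted p above 0.05 does not show that a gene was equal in both groups.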

Other observations

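Branches that draw on glycolytic intermediates were read in the same fit. Of 9 genes of the pentose phosphate pathway 8 were tested and none was called by limma at an adjusted p under 0.05, and 1 had an unadjusted p under 0.05. Without shS1#1 replicate 2, TALDO1, the transaldolase of this pathway, was called as higher (log2 fold change 0.22, adjusted p = 0.00901), against 0.15 and an adjusted p of 0.271 with all libraries. The adjusted p of TALDO1 reached 0.478 with another library left out. Of 19 genes for glycogen, hexosamine and serine synthesis, 16 were tested, 1 was higher and 3 were lower, or 4 and 5 without that library. PSAT1, the transaminase of serine synthesis, rose from a mean of 20.4 ± 1.81 (SD, n = 3) to one of 33.6 ± 3.24 FPKM (log2 fold change 0.72, adjusted p = 0.00802 by limma), whereas PHGDH (-0.31, adjusted p = 0.0309) and PSPH (-0.40, adjusted p = 0.0314), the enzymes before and after it, fell. PGM1, which links glucose phosphates to glycogen, fell from 9.47 ± 0.267 to 5.80 ± 0.184 FPKM (log2 fold change -0.70, adjusted p = 0.00171 by limma).

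Of 16 hypoxia response genes outside glycolysis, 13 were tested, 2 were higher and 1 was lower, or 3 and 2 without that library. NDRG1 (log2 fold change 0.27, adjusted p = 0.0453 by limma) and the mitophagy receptor BNIP3L (0.35, adjusted p = 0.0467) rose, and P4HA1, a collagen prolyl hydroxylase, fell (-0.45, adjusted p = 0.0410). CA9, an enzyme strongly induced by hypoxia, did not pass the filter on low values. Of 9 genes of gluconeogenesis 4 were tested, and G6PC3, a glucose-phosphate phosphatase, fell (-0.39, adjusted p = 0.0481).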
